A study of Mus musculus with 24 samples.

Results

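The genes described are 36 transcription factors that pattern the forebrain and the hindbrain, out of 24421 gene names measured. They were taken from a list of non-Hox patterning factors, and all 36 had a row in every library. They fall into 8 factors of the pallium, 9 of the ventral forebrain and olfactory bulb lineage, 5 that grade cortical areas or mark progenitors, 10 of the midbrain, hindbrain and spinal cord, and 4 Zic genes.

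Patterning transcription factors divide the neural tube of the embryo along its anterior to posterior and its dorsal to ventral axes. LIM-homeodomain, EMX and OTX proteins act in the forebrain, while Iroquois (IRX) and Engrailed (EN) proteins act at the midbrain and behind it. Astrocytes arise from the progenitors that these factors pattern, and keep part of that code in the adult, so that the set of factors in an adult astrocyte can mark the place it comes from. ZIC proteins are zinc finger factors of the dorsal midline, and are also found in the meninges.

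RNA was sequenced in bulk from GFP-sorted cells of C57BL6 mice aged 20 weeks. The control genotype was NFIAfl/fl; Aldh1l1-GFP. The genotype labelled knockout was NFIAfl/fl; Aldh1l1-CreER; Aldh1l1-GFP, so that both carried the floxed Nfia allele and the GFP reporter of astrocytes. Aldh1l1-CreER is an inducible recombinase limited to cells in which the Aldh1l1 promoter is active, and when it was induced is not given in the sources used here. Cells came from brainstem, cortex, hippocampus and olfactory bulb, and each of the 8 groups of region and genotype has 3 libraries. The labels do not say whether the libraries of a group came from separate mice, so the p-values measure the spread between libraries, which may be technical. The series asks what loss of NFIA does to astrocytes of each region, and the comparisons below ask whether the patterning factors that tell the regions apart in controls differ by genotype.

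Levels are read counts on 1 scale shared by all 24 libraries, called scaled counts, and are comparable between libraries. They are divided by exon length (scaled counts per kb) where genes are compared with each other. Differences are on the scale of log2 of the scaled count plus 5, which understates the change of genes at low levels. Each is given with its standard error (SE) from a limma fit over 12759 genes, and with p adjusted over those genes by Benjamini-Hochberg.

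Nfia was checked first, because the libraries are labelled by its deletion. In olfactory bulb its scaled counts were 4025, 4532 and 4987 in controls and 7457, 7903 and 8566 in libraries labelled knockout. In hippocampus they were 4533, 7428 and 6608 against 10574, 11626 and 13264, in cortex 5719, 6572 and 7015 against 9993, 11231 and 10444, and in brainstem 3294, 5976 and 4535 against 9862, 10289 and 8726. The counts cover the whole gene, so that transcripts without the deleted part are counted too. Nfia was thus higher in all 4 regions in the libraries labelled knockout, against the direction of the label, and every direction by genotype below is that of the labels.

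Depth was 4503269 to 9425474 reads in olfactory bulb, 5543804 to 24297573 in hippocampus, 3287872 to 7179349 in cortex and 1090777 to 5552215 in brainstem. The shallowest was the brainstem library labelled knockout 3, in which 3 reads, the limit that a count of 0 allows, are worth 17.2 scaled counts. All 12 listed astrocyte markers were present in every library, with a summed level of 126776 to 669418. Choroid plexus markers, with 10 of 10 present in every hippocampal control and up to 2 at 0 in hippocampal libraries labelled knockout, summed to 107662 to 223110 in the former and to 3582 to 9416 in the latter. In brainstem their sum was 77324 to 370604 in controls and 8086 to 138802 in libraries labelled knockout. The ribosomal RNA gene Rn45s took 13.5% to 25.6% of reads in cortex, in brainstem and in the olfactory bulb library labelled knockout 3, and 0.966% to 3.33% elsewhere. Its part in the differences between regions was not tested. In bulk libraries, fewer cells of a type and less RNA per cell cannot be told apart.

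Sequences upstream of 4 members are shown because each stands for 1 regional pattern described below: Lhx2 for the forebrain, Neurod6 for the hippocampus, Sp8 for the olfactory bulb and Irx2 for the brainstem. Each is the 250 bases before the most upstream RefSeq start (build GRCm38.p6), 5′ to 3′ on the strand of the gene. They lie at chr2:38339031-38339280 (plus strand), chr6:55681264-55681513 (minus strand), chr12:118846079-118846328 (plus strand) and chr13:72628570-72628819 (plus strand). Capitals mark TTGGC or its complement GCCAA, the short recognition unit of nuclear factor I proteins.
Lhx2: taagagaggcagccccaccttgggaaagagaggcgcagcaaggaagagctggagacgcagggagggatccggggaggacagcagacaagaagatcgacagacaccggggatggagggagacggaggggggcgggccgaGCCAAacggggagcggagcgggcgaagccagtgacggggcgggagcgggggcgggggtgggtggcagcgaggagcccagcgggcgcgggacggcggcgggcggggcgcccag
Neurod6: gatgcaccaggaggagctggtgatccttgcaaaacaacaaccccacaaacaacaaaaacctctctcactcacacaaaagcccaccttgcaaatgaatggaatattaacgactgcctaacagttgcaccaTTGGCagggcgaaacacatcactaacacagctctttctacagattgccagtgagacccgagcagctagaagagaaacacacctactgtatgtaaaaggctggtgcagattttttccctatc
Sp8: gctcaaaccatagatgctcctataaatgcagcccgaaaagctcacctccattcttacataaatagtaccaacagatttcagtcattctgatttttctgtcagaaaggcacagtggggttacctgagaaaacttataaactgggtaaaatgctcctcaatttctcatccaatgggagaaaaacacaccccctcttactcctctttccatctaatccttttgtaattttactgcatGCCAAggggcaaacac
Irx2: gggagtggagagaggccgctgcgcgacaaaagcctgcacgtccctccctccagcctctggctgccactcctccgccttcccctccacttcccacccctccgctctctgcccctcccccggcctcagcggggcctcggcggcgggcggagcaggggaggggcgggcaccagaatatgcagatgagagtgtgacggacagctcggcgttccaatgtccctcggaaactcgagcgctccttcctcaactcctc
The short unit was found once upstream of Lhx2, Neurod6 and Sp8, and was not among the letters of the Irx2 window. It is common: 41.5% of 32851 windows of the same length in the table hold it on either strand, as did 42.1% of the 38 windows of the 28 members with an entry. The full palindrome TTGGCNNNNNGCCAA, which contains the short unit 2 times, was in 0.0365% of all windows and in 0 of the 38. A match is only a description of these letters. Otx1, Dlx5, Tshz1, Irx1, Irx5, Foxb1, En2 and Zic2 had no entry.

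Of the 36 members, 28 reached a scaled count of 20 in at least 3 libraries and were tested. The other 8 were Emx1, Dlx2, Gsx2, Irx3, Barhl1, En1, Gbx2 and Lmx1b. Of the 28, 7 reached 20 in libraries of 1 region only (Dmrt3 and Neurod6 in hippocampus, Irx1, Irx2, Irx5, Foxb1 and En2 in brainstem), and so could pass only if the regions differed. In controls the 4 regions differed for 25 of the 28 by the F test of limma, where 23.5% of all tested genes were called, and because of that filter the count is a description. Sp8, Sp9, Dlx1 and Dlx5 reached 20 outside olfactory bulb only in the cortical library labelled knockout 1. The counts of calls between regions given further on are descriptions for the same reason. The tested members not called in that F test were Tshz1, Lef1 and Zic5.

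**Figure D1:**
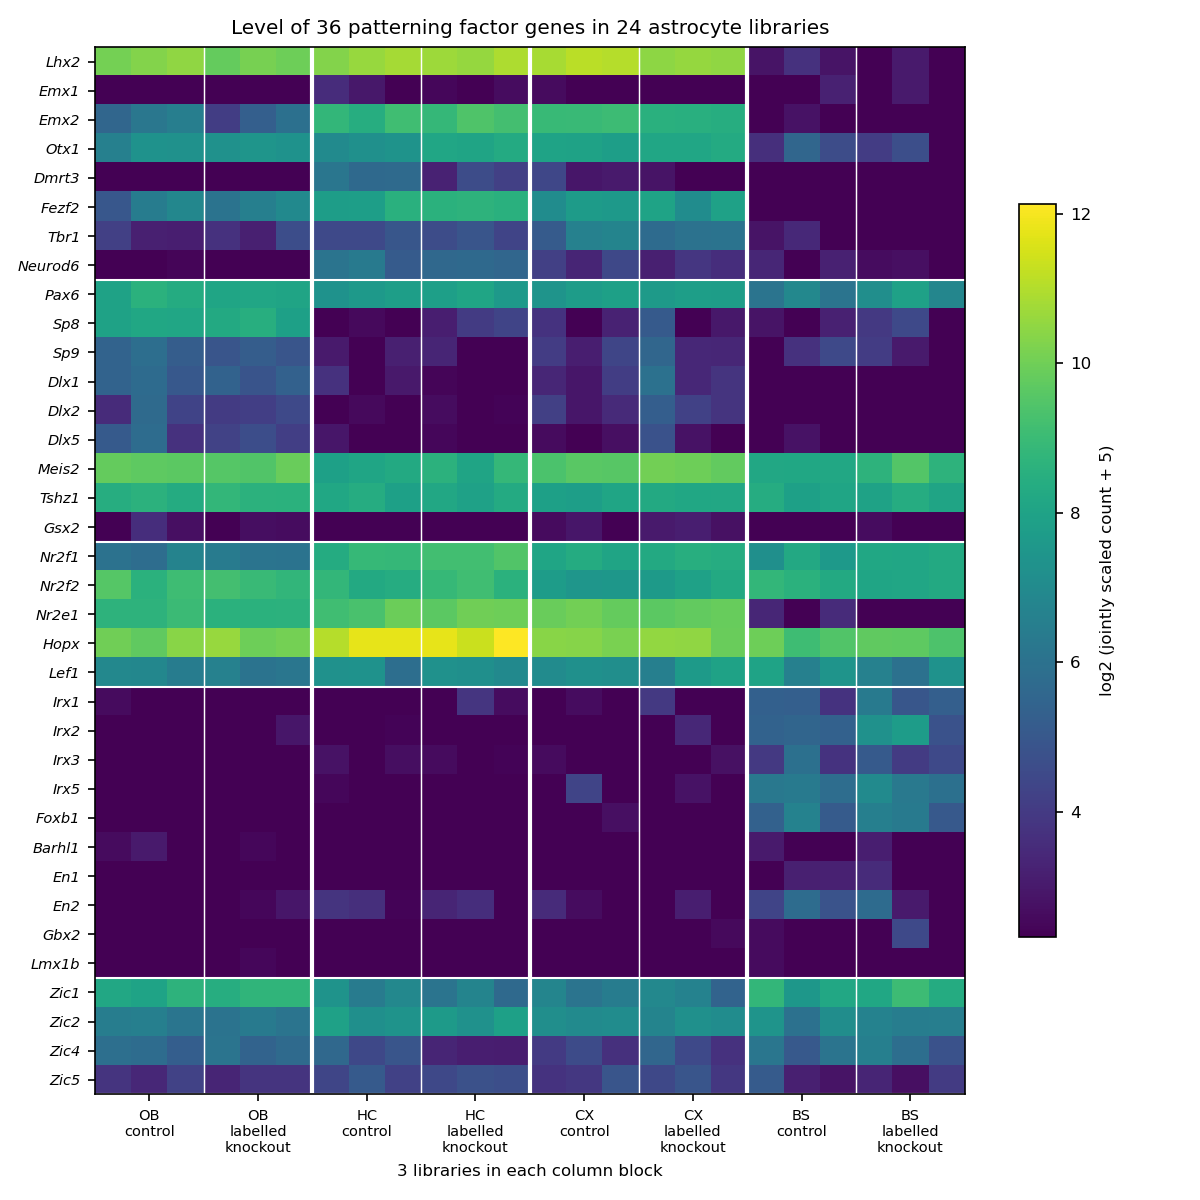
Heat map of log2 of the scaled count plus 5 for 36 members (rows, by group) in 24 libraries (columns, 3 for each region and genotype). OB is olfactory bulb, HC hippocampus, CX cortex and BS brainstem; pallial members other than Otx1 are dark in BS, and Irx1, Irx2, Irx5 and Foxb1 are dark in nearly every library outside it.

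Of the 8 pallial factors, Lhx2, Emx2 and Fezf2 were at 133 or more in every cortical and hippocampal control and at most 8.09 in brainstem controls. The others were lower or less evenly spread. Lhx2, a LIM-homeodomain selector of cortex (chromosome 2, 38339281 to 38369733 in mm10), was the member with the widest range. In controls its scaled counts were 1076, 1277 and 1446 in olfactory bulb, 1281, 1551 and 1806 in hippocampus, 1820, 2229 and 2083 in cortex, and 2.13, 8.09 and 2.14 in brainstem. Every forebrain library was thus far above every brainstem library. The cortical mean of 2044 ± 207 (SD, n = 3) was 496-fold the brainstem mean of 4.12 ± 3.44 (SD, n = 3), with a log2 difference of 7.87 (SE 0.21, adjusted p = 1.16e-21). No difference in Lhx2 was called between cortex and hippocampus (adjusted p = 0.431) or between hippocampus and olfactory bulb (adjusted p = 0.522), while cortex was higher than olfactory bulb (olfactory bulb minus cortex -0.69, SE 0.21, adjusted p = 0.0398).

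Emx2, a homeobox factor of the dorsal telencephalon that shapes the hippocampus and cortical areas, lies on chromosome 19 (59458372 to 59465357) and overlaps the antisense gene Emx2os. Its control counts were 477, 494 and 529 in cortex, 450, 339 and 555 in hippocampus, 41.9, 68.4 and 86.3 in olfactory bulb, and 0, 2.02 and 0 in brainstem. Olfactory bulb thus lay between the other forebrain regions and brainstem with no overlap, with a log2 difference of -2.71 (SE 0.34, adjusted p = 1.82e-06) from hippocampus and of 3.60 (SE 0.34, adjusted p = 5.38e-09) from brainstem. Fezf2, a zinc finger factor that specifies neurons projecting below the cortex, is on chromosome 14 (12342094 to 12348189). It had 215, 222 and 371 scaled counts in hippocampus, 133, 203 and 190 in cortex, 26.5, 81.3 and 111 in olfactory bulb, and 0 reads in all 3 brainstem controls. Against a floor of 3 reads over that group, hippocampus was at least 171-fold higher.

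Dmrt3 and Neurod6 were the members nearest to a hippocampal pattern. Dmrt3, a doublesex-related factor of the medial pallium (chromosome 19, 25610301 to 25623921), had 66.6, 45.4 and 47.1 in hippocampal controls. Cortical controls had 16.2, 2.52 and 3.09, and the gene had 0 reads in olfactory bulb and brainstem, so that hippocampus was at least 33.6-fold above brainstem. Hippocampus was above cortex by 2.40 (SE 0.51, adjusted p = 0.0133). Neurod6, a basic helix-loop-helix factor of pyramidal neurons (chromosome 6, 55677822 to 55681263), had 64.1, 76.9 and 30.0 in hippocampus, 13.0, 5.04 and 17.0 in cortex, 5.32, 0 and 4.29 in brainstem, and 0, 0 and 0.546 in olfactory bulb. Hippocampus exceeded cortex by 1.88 (SE 0.48, adjusted p = 0.0431) with no overlap between libraries.

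Otx1, a homeobox factor of forebrain and midbrain, ran from 240 ± 16.9 (SD, n = 3) in cortex to 23.1 ± 17.8 (SD, n = 3) in brainstem, a ratio of 10.4. Tbr1, a T-box factor of deep-layer cortical neurons, was highest in cortex at 76.1 ± 40.0 (SD, n = 3) and ran down to 2.73 ± 3.08 (SD, n = 3) in brainstem. Emx1, the paralogue of Emx2, was at most 6.98 in any library and was not tested. All 7 tested pallial members were called lower in brainstem than in the mean of the other control regions, with log2 differences of -7.50 to -1.11, where 4.26% of tested genes were. Dmrt3 and Neurod6, among these 7, had passed the filter through hippocampus only. The 8 markers of forebrain excitatory neurons, with at most 1 at 0 in any control library, summed to 91.1 to 251 in brainstem controls, 1212 to 1906 in olfactory bulb, 3481 to 6619 in hippocampus and 5288 to 6501 in cortex, so they moved in the same order as several pallial members. Their part in the levels of Neurod6, Tbr1 and Fezf2 was not tested.

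Olfactory bulb controls were set apart by factors of the ventral forebrain and of newborn interneurons. Sp8, a zinc finger factor of olfactory interneurons (chromosome 12, 118846329 to 118852576), had 246, 283 and 275 scaled counts in olfactory bulb. It had 0, 0.927 and 0 in hippocampus, 8.65, 0 and 4.64 in cortex, and 2.13, 0 and 4.29 in brainstem. The olfactory bulb mean of 268 ± 19.6 (SD, n = 3) was 60.4-fold the cortical mean, with a log2 difference of 4.97 (SE 0.59, adjusted p = 6.88e-07). Its paralogue Sp9 was lower, at 31.7 to 53.9 in olfactory bulb and 0 to 17.1 elsewhere in controls, and overlaps Cir1 on the other strand.

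The distal-less homeobox genes Dlx1, Dlx2 and Dlx5, which specify forebrain inhibitory neurons, stood at 38.2 ± 10.2, 22.9 ± 21.6 and 29.3 ± 20.9 (SD, n = 3 each) in olfactory bulb controls. Their highest value in any other control library was 13.0, of Dlx2 in cortex, and Dlx1 and Dlx2 had 0 reads in every brainstem library. Gsx2, a homeobox factor of the ventral telencephalon, was at most 7.24. The 8 listed neuroblast markers that are not members, all present in olfactory bulb, summed to 3131 to 3597 in its controls and to 920 to 2667 in controls of the other regions. The 8 inhibitory neuron markers summed to 748 to 1033 against 114 to 465. The part of such cells in the levels of Sp8 and the Dlx genes was not tested.

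Pax6, Meis2 and Tshz1 were present in all regions. Pax6, a paired-box factor of forebrain progenitors and astrocytes, was at 318 ± 66.7 (SD, n = 3) in olfactory bulb and 80.1 ± 28.7 (SD, n = 3) in brainstem, with hippocampus and cortex between. Meis2, a homeobox cofactor of the ventral forebrain (chromosome 2, 115863064 to 116065839), formed 2 levels. Its control counts were 899, 824 and 800 in olfactory bulb and 647, 791 and 764 in cortex, against 232, 264 and 303 in hippocampus and 288, 283 and 294 in brainstem. No difference was called within the higher pair (0.20, 95% interval -0.21 to 0.61, adjusted p = 0.676) or within the lower pair (-0.12, 95% interval -0.53 to 0.29, adjusted p = 0.838), while cortex was above brainstem by 1.33 (SE 0.20, adjusted p = 1.99e-05). Tshz1, a zinc finger factor of olfactory bulb development, lay between 222 and 389 in all 12 controls and was not called in the F test (adjusted p = 0.163).

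Factors that grade cortical areas or mark progenitors split the regions in other ways. Nr2e1 (TLX), an orphan nuclear receptor of adult neural stem cells (chromosome 10, 42561963 to 42583632), had 932, 1063 and 894 in cortical controls, 548, 630 and 974 in hippocampus, 397, 402 and 512 in olfactory bulb, and 5.32, 0 and 6.43 in brainstem. It was thus a pan-forebrain gene in these libraries, and the cortical mean was 246-fold the brainstem mean. Nr2f1 (COUP-TFI), which sets caudal cortical area identity, was highest in hippocampus at 419 ± 80.4 (SD, n = 3) and lowest in olfactory bulb at 70.5 ± 26.3 (SD, n = 3), below brainstem. Its relative Nr2f2 (COUP-TFII) had its highest mean, 552 ± 180 (SD, n = 3), in olfactory bulb and its lowest, 187 ± 20.7 (SD, n = 3), in cortex.

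Hopx, a homeodomain protein of quiescent stem cells and astrocytes, had the highest level per length of the members, at 2015 scaled counts per kb in hippocampus, where Lhx2 had 352. It was 2.42-fold higher in hippocampus than in cortex (log2 difference 1.23, SE 0.25, adjusted p = 0.0104). Lef1, the nuclear partner of Wnt signalling, was at 53.4 to 252 over the controls with no difference called between regions (adjusted p = 0.608). Nr2f1, Nr2f2, Hopx and Lef1, like Nfia, Dlx1, Irx3, Foxb1 and Gbx2, each overlap an antisense gene, and since the strand used in counting is not given in the sources used here, reads of such pairs cannot be told apart.

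Of the 10 posterior factors, Irx1, Irx2, Irx3, Irx5, Foxb1 and En2 were higher in every brainstem control than in any other control library. All but Irx3 were tested, and each of those had passed the filter through brainstem only. Irx5, an Iroquois homeobox factor (chromosome 8, 92357625 to 92376286), had 70.2, 74.9 and 51.4 in brainstem controls. It was at 0 reads in all olfactory bulb controls, at 0.635, 0 and 0 in hippocampus and at 0, 15.1 and 0 in cortex, so that a single cortical library held some. Brainstem was at least 87.0-fold above olfactory bulb, and the log2 difference of cortex from brainstem was -3.13 (SE 0.51, adjusted p = 5.64e-05). Irx2 (chromosome 13, 72628820 to 72634198) had 37.2, 40.5 and 36.4 in brainstem controls and 0.371 as its highest value in the other 9.

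Irx1, beside Irx2 on chromosome 13, was at 35.1, 34.4 and 8.57 in brainstem controls and at most 1.26 elsewhere. Foxb1, a forkhead factor of midbrain and hypothalamus, had 36.2, 97.1 and 30.0 in brainstem and 1.55 as its highest value elsewhere. En2, which sets the midbrain and cerebellum border region, was less sharply placed, at 14.9, 50.6 and 23.6 in brainstem and up to 8.89 in hippocampus. Irx3 had 10.6, 56.7 and 8.57 in brainstem and at most 1.90 elsewhere in controls. En1, Barhl1, Gbx2 and Lmx1b, of the same midbrain and hindbrain territory, had at most 4.29, 3.22, 1.06 and 1.06 in any control library and were not tested. The 10 oligodendrocyte markers summed to 54125 to 93543 in brainstem controls and to at most 41819 in other controls. The 8 hindbrain neuron markers, of which up to 7 were at 0, summed to 72.4 to 131 against 5.51 to 76.0. The 8 markers of cerebellar granule and Purkinje cells summed to 304 to 829 in brainstem controls and 307 to 584 in other controls, which overlap. None was at 0 over all brainstem controls, while 1 to 3 were over the controls of each other region, Gabra6 always among them. The part of any of these cell types in the levels of the posterior factors was not tested.

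Zic genes crossed the division between forebrain and brainstem. Zic1 was at 314 ± 74.8 (SD, n = 3) in olfactory bulb and 306 ± 136 (SD, n = 3) in brainstem, against 118 ± 41.1 in hippocampus and 83.7 ± 21.5 in cortex (SD, n = 3 each). Zic4, on chromosome 9 (91362413 to 91389348) with exons that overlap Zic1 on the other strand, had 55.1, 49.9 and 32.8 in olfactory bulb, 68.1, 28.3 and 64.3 in brainstem, 45.1, 16.7 and 25.2 in hippocampus and 10.8, 18.9 and 7.74 in cortex. Zic2 was highest in hippocampus, at 180 ± 50.2 (SD, n = 3), and lowest in olfactory bulb, at 79.8 ± 13.6 (SD, n = 3). Zic5, its neighbour on chromosome 14, stayed under 30 in all 24 libraries and was not called (adjusted p = 0.589).

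**Figure D2:**
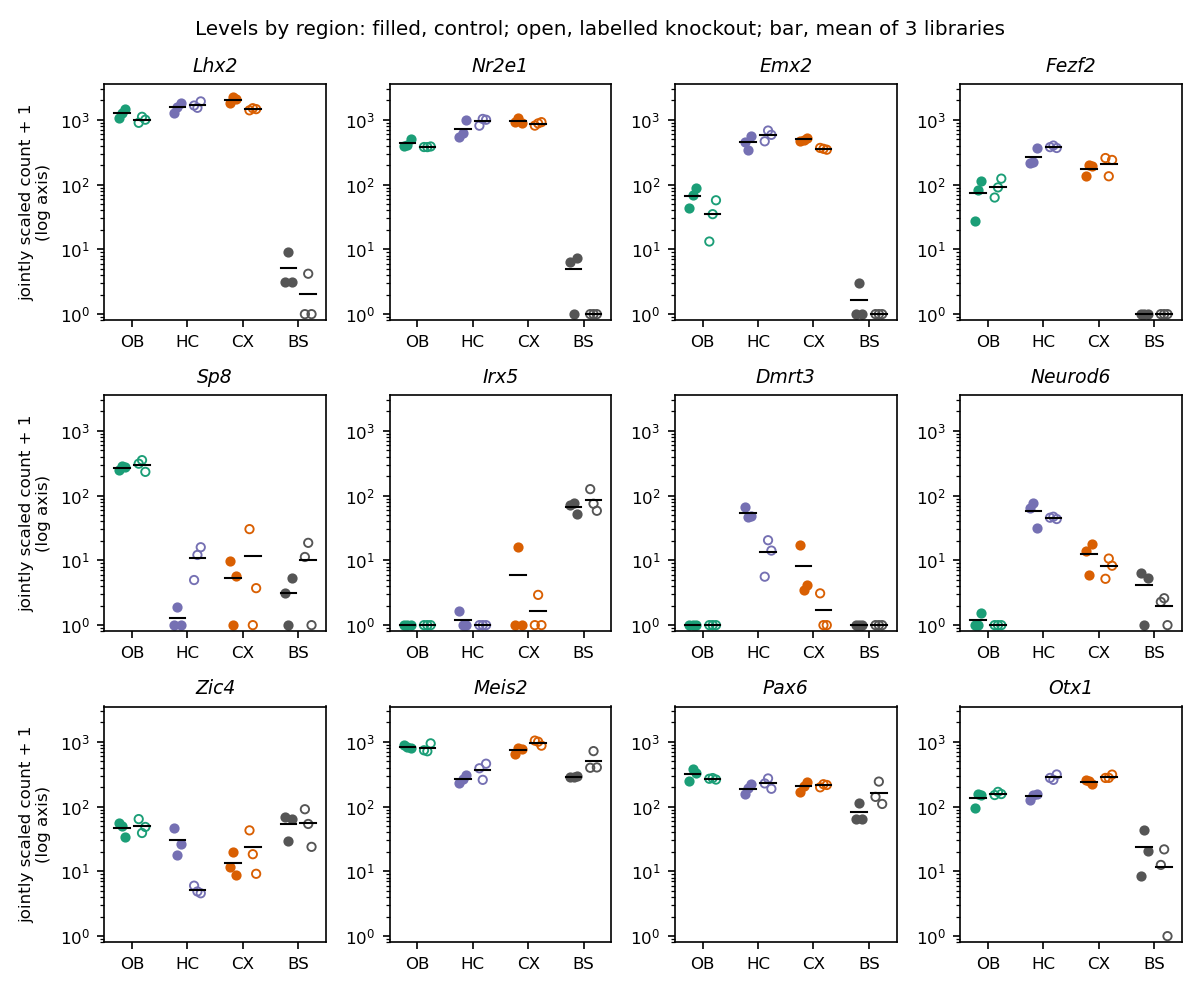
Scaled count plus 1 (log axis) of 12 members by region, for control libraries (filled) and libraries labelled knockout (open), with bars at the mean of 3 libraries. Lhx2, Nr2e1, Emx2 and Fezf2 fall to near 0 in brainstem (BS) in both genotypes, Sp8 stands out in olfactory bulb (OB), and in hippocampus (HC) the open points of Zic4 and Dmrt3 all lie below the filled ones.

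Each control region was then set against the mean of the other 3, with a call at an adjusted p under 0.05 and an absolute log2 difference above 1. Olfactory bulb had 9 members higher and 4 lower, where 4.47% of tested genes were called higher and 4.11% lower. Hippocampus had 8 higher and 2 lower (0.729% and 1%), cortex 6 and 3 (1.76% and 1.72%), and brainstem 5 and 12 (5.56% and 4.26%). Over the 21 members that reached 20 in more than 1 region, the counts were 9 and 1 in olfactory bulb, 6 and 2 in hippocampus, 6 and 3 in cortex and 0 and 10 in brainstem. The 9 include Sp8, Sp9, Dlx1 and Dlx5, which are among the 21 only through 1 cortical library labelled knockout. The filter thus still favoured the olfactory bulb count. The mean of the other regions includes brainstem, so Lhx2 and Nr2e1 were called higher in each of the 3 forebrain regions. Cortex and hippocampus were the closest pair, with 5 of 28 members called where 1.19% of genes were. Dmrt3, Neurod6, Nr2f2 and Hopx were higher in hippocampus (0.415% of genes), of which Dmrt3 and Neurod6 had passed the filter through hippocampus only, and Meis2 was lower there (0.776% of genes), with a log2 difference of -1.45 (SE 0.20, adjusted p = 0.000111). The other pairs had 13 members called (olfactory bulb against hippocampus, 10% of genes, and against cortex, 8.55%), 16 (hippocampus against brainstem, 7.59%) or 17 (olfactory bulb and cortex against brainstem, 19.5% and 15.3%).

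The same regional differences were measured again in the 12 libraries labelled knockout, which share no library with the controls. There, olfactory bulb had 8 members higher and 5 lower (3.93% and 3.1% of all genes), hippocampus 10 and 5 (1.12% and 1.91%), cortex 6 and 2 (1.32% and 1.58%), and brainstem 6 and 10 (6.05% and 4.55%). Over the 21 members that reached 20 in more than 1 region, the counts were 8 and 2, 8 and 3, 6 and 2, and 2 and 9, in the same order of regions. All 49 calls of the controls had the same sign there, and 39 passed the same threshold in the same direction. These 39 are 79.6% of the control calls and 75% of the 52 calls in libraries labelled knockout. Of all 3013 control calls over the tested genes, 97% had the same sign and 59.3% passed in the same direction, which is 59.4% of the calls in libraries labelled knockout. The sign alone thus held for nearly all genes. The filter counted libraries of both genotypes. It thus favoured agreement for Irx2, Irx5, Foxb1 and Neurod6, which reached 20 in all 6 libraries of 1 region and in no other. The 4 contrasts of a gene share their libraries and are not separate observations, so the shares of shared calls are descriptions. No member was called in opposite directions in the same region. The region with the highest mean was the same in both genotypes for 23 of the 28 tested members. Lhx2, Emx2 and Nr2e1 had it in cortex in controls and in hippocampus in libraries labelled knockout, Meis2 in olfactory bulb and then cortex, and Lef1 in brainstem and then cortex. A call in 1 genotype and not in the other is no test of a difference between them, which is given by the test of genotype by region further on.

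The forebrain to brainstem contrast of pallial factors was again wide in the libraries labelled knockout. Lhx2 had 1396, 1506 and 1458 in cortex and 0, 3.20 and 0 in brainstem, and its log2 difference of brainstem from the other regions was -7.84 (SE 0.18, adjusted p = 8.79e-24), where the controls gave -7.50. Nr2e1, Emx2 and Fezf2 had 0 reads in all 3 of these brainstem libraries. Irx5 (125, 73.7 and 57.2), Irx2 (149, 207 and 22.9) and Foxb1 (89.9, 76.9 and 28.6) were present in all 3. In the forebrain the highest values of Irx5, Irx2 and Foxb1 in libraries labelled knockout were 1.93, 5.79 and 0. Irx1 reached 10.5 in cortex and 9.44 in hippocampus there, and En2 reached 7.22 in hippocampus.

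Sp8 again marked olfactory bulb, with 309, 351 and 231 in libraries labelled knockout. It was above the other regions there by 4.59 (SE 0.48, adjusted p = 4.62e-08), against 5.32 (SE 0.48) in controls. Neurod6 again marked hippocampus, with 44.5, 46.1 and 42.4, and by 2.81 (SE 0.39, adjusted p = 1.80e-05). The library labelled knockout 1 of cortex stood apart from the other 2 in the olfactory bulb factors: Dlx1 was at 58.7 against 5.79 and 9.08, Sp8 at 29.3 against 0 and 2.72, and Dlx5 at 23.0 against 1.93 and 0. Its level of the neuroblast marker Dcx was 603 against 86.9 and 50.8. The 8 neuroblast markers that are not members, Dcx among them, differed less, with sums of 4320 against 3653 and 3257. Gad1, also among them, was at 70.2 against 59.9 and 58.1. The part of neuroblasts was not tested.

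**Figure D3:**
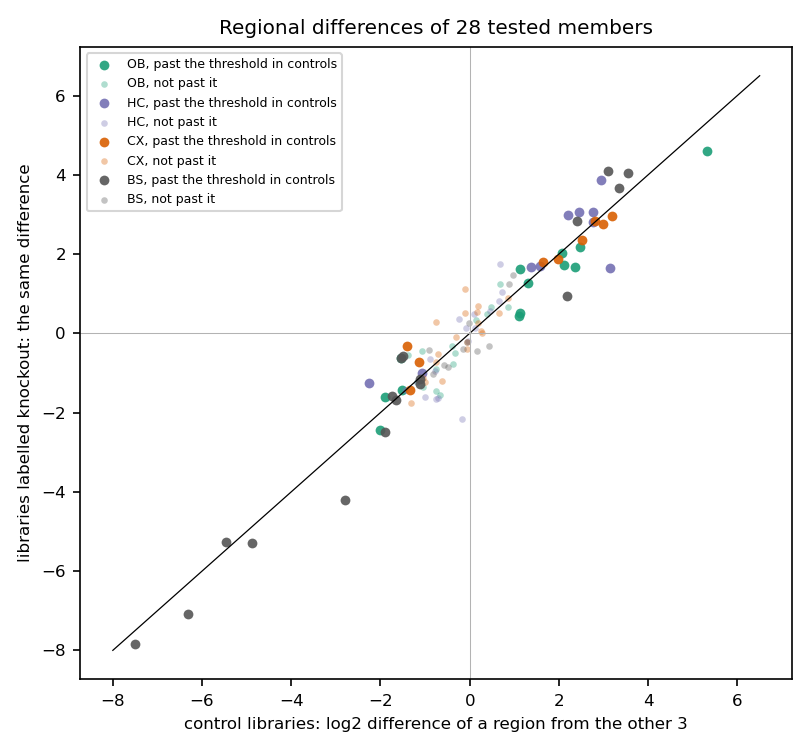
Log2 difference of each region from the mean of the other 3 for 28 tested members, in controls (x axis) and in libraries labelled knockout (y axis), with the line of equality. Large points are the 49 differences past the threshold in controls, all of which have the same sign on both axes; colours are regions as abbreviated in the legend.

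Each library was also compared with the mean profile of the controls of every region, by the correlation over the 36 members of log2 of the scaled count plus 5. A control library was left out of its own mean. All 12 libraries labelled knockout were closest to the controls of their own region, as were all 12 controls. This is a description over 36 genes that share libraries and depth. For libraries labelled knockout, the correlation with the own region was 0.938 to 0.966 in brainstem. The next region was lower there by 0.440 to 0.578. In olfactory bulb the correlation of these libraries was 0.988 to 0.995 with a margin of 0.115 to 0.154. In cortex it was 0.951 to 0.989 with a margin of 0.0220 to 0.0518.

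Hippocampal libraries labelled knockout had the smallest margins over cortex, 0.00357 to 0.0167, against 0.0197 to 0.0445 for hippocampal controls. The hippocampal library labelled knockout 1 was at 0.979 to hippocampus and 0.975 to cortex. The number nearest to their own region fell to 11 of 12 with an added constant of 1 in place of 5 and without hippocampal control 2. The cortical library labelled knockout 1 was the only cortical one whose second region was olfactory bulb.

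Within regions, few members were called by genotype, and few of all genes were. In hippocampus 6 of 28 members had an unadjusted p under 0.05, and the share of all genes at that level is not given. After adjustment 1 of 28 members passed the test, where 2.36% of all genes did (1.67% lower). That member was Zic4, with 45.1, 16.7 and 25.2 scaled counts in controls and 5.01, 3.89 and 3.58 in libraries labelled knockout. The groups did not overlap, and Zic4 was lower by genotype with a log2 difference of -1.81 (SE 0.49, adjusted p = 0.0432). The call did not survive leaving out any 1 of hippocampal controls 1 or 3 or of the 3 libraries labelled knockout (adjusted p = 0.0887 to 0.272). It was also lost with limma-voom (adjusted p = 0.101) and without the filter on low values (adjusted p = 0.0756), while DESeq2 gave an adjusted p of 0.000240.

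Other cell types moved with this result. The choroid plexus sum in hippocampus, given above, did not overlap between genotypes, and Ttr, its most abundant marker, was at 66523 to 134182 in controls and 2001 to 5636 in libraries labelled knockout. The 10 fibroblast and meningeal markers summed to 2235 to 4192 against 466 to 889, and the 8 ependymal markers, of which up to 3 were at 0, to 158 to 208 against 22.7 to 45.9. In olfactory bulb, where Zic4 was at 32.8 to 55.1 in controls and 38.1 to 63.1 in libraries labelled knockout, choroid plexus markers summed to 2568 to 3114 and 2580 to 3121, with Folr1 at 0 in all 6. In brainstem the choroid plexus sum was lower on average in libraries labelled knockout, as given above, with Zic4 at 68.1, 28.3 and 64.3 in controls and 89.9, 52.9 and 22.9 in libraries labelled knockout. In cortex the sum was 3421 to 95235 against 1113 to 12205, with Zic4 at 10.8, 18.9 and 7.74 against 41.9, 17.4 and 8.17. Zic4 thus overlapped between genotypes in these 3 regions. The part of these cells in the hippocampal Zic4 level was not tested.

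Dmrt3 in hippocampus missed the threshold. It had passed the filter only through the 3 hippocampal controls, so that a lower level in libraries labelled knockout was favoured by the filter. Its values were 4.59, 19.4 and 13.1 in libraries labelled knockout, all below the 3 controls given above, with a log2 difference of -1.82 (SE 0.51, adjusted p = 0.0511). It passed on the scale deposited by the authors, with limma-voom, in the fit of hippocampal libraries alone, and without the filter on low values. In cortex the 3 libraries labelled knockout had 2.10, 0 and 0, again all below controls, with a difference of -0.95 (SE 0.51, adjusted p = 0.856). Otx1 went the other way in hippocampus, with 125, 148 and 158 in controls and 275, 257 and 312 in libraries labelled knockout (0.95, SE 0.41, adjusted p = 0.294). DESeq2, limma-voom and the fit of hippocampal libraries alone did call Otx1 there. Sp8 was called there by edgeR and DESeq2, and Dlx1 by DESeq2. Beside Dmrt3, libraries did not overlap between genotypes in hippocampus for Otx1, Sp8 and Nr2f1, which were higher, and for Zic4, where 9.73% of all genes were higher and 10.4% lower without overlap. The neuroblast markers that are not members summed to 1515 to 2336 in hippocampal controls and 2800 to 2830 in libraries labelled knockout, and their part was not tested.

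In olfactory bulb limma called 0 of 28 members, where 0.0862% of genes were called, and 1 had an unadjusted p under 0.05 (5.09% of genes). edgeR (1 at an unadjusted p under 0.05) and DESeq2 (2) also called 0. The member with the smallest p was Emx2, with 41.9, 68.4 and 86.3 in controls and 12.2, 33.9 and 56.2 in libraries labelled knockout, which overlap (log2 difference -0.98, SE 0.34, 95% interval -1.68 to -0.28, adjusted p = 0.632). Lhx2 came next, with 1076, 1277 and 1446 against 896, 1109 and 1000 (-0.33, SE 0.21, adjusted p = 1). Only Nr2e1 did not overlap, at 397, 402 and 512 against 378, 377 and 386, where 6.92% of genes were lower and 7.15% higher without overlap.

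In cortex limma called 0 of 28 members as well, where 0.376% of genes were called, with 1 at an unadjusted p under 0.05 (6.11% of genes). edgeR (3 at an unadjusted p under 0.05) and DESeq2 (2) called 0, and limma-voom called 1, Lhx2. Lhx2 had 1820, 2229 and 2083 in controls and 1396, 1506 and 1458 in libraries labelled knockout, without overlap (-0.49, SE 0.21, adjusted p = 0.743 with limma and 0.0316 with limma-voom). Meis2 had 647, 791 and 764 against 1041, 1000 and 870, also without overlap (0.40, SE 0.20, adjusted p = 0.831). Lhx2, Emx2 and Dmrt3 were lower without overlap and Otx1, Meis2 and Tshz1 higher, where 7.48% and 7.06% of all genes were. Markers of excitatory neurons in cortex summed to 4180 to 5047 in libraries labelled knockout, below the 5288 to 6501 of controls. Neuroblast markers that are not members summed to 3257 to 4320, above the 2341 to 2667 of controls. Of these markers, Dcx overlapped between genotypes, at 603, 86.9 and 50.8 in libraries labelled knockout against 80.0, 41.6 and 48.0. Gad1 overlapped too, at 70.2, 59.9 and 58.1 against 47.6, 30.2 and 66.5. The part of either cell type in these differences was not tested.

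In brainstem 0 of 28 members were called, where 0.666% of genes were, and 7 had an unadjusted p under 0.05 (14.8% of genes). Pax6 had 62.8, 113 and 64.3 in controls and 140, 242 and 109 in libraries labelled knockout, with a log2 difference of 0.96 (SE 0.26, adjusted p = 0.0704). Meis2 had 288, 283 and 294 against 396, 716 and 400, without overlap, and a difference of 0.74 (SE 0.20, adjusted p = 0.0732). DESeq2 called both and edgeR neither. Without brainstem control 2 limma called 4 members, among them Pax6 (adjusted p = 0.00531) and Meis2 (adjusted p = 0.0475). The share of all genes called in that fit is not given. Meis2 was the only member without overlap in brainstem, where 5.42% of all genes were higher and 5.65% lower without overlap.

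**Figure D4:**
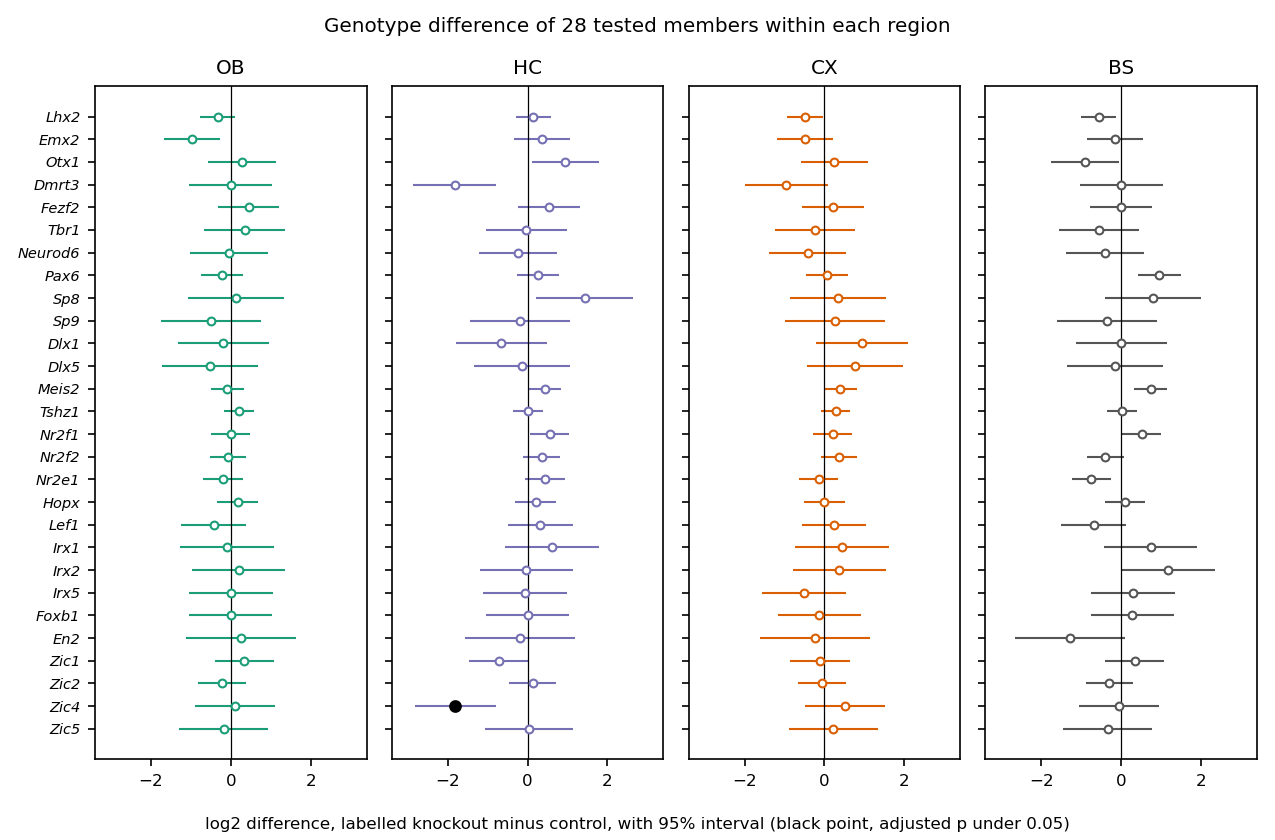
Log2 difference between libraries labelled knockout and controls with its 95% interval for 28 tested members, in each of 4 regions (OB olfactory bulb, HC hippocampus, CX cortex, BS brainstem). The black point, Zic4 in HC, is the only difference with an adjusted p under 0.05; Pax6 and Meis2 in BS and Dmrt3 in HC lie off 0 but miss the threshold.

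Averaged over the 4 regions, 1 of 28 members was called, where 5.75% of all genes were (2.73% higher). At an unadjusted p under 0.05 there were 6 members, and the share of all genes at that level is not given. Meis2 was higher in libraries labelled knockout by 0.37 (SE 0.10, adjusted p = 0.0258), with region differences of 0.74 in brainstem, 0.43 in hippocampus, 0.40 in cortex and -0.09 in olfactory bulb. Its libraries overlapped in olfactory bulb, at 737, 712 and 944 against 899, 824 and 800, and in hippocampus, at 389, 257 and 458 against 232, 264 and 303. The call was lost without the filter on low values (adjusted p = 0.0542), where limma called Dmrt3 instead (adjusted p = 0.0346). It was also lost when olfactory bulb library labelled knockout 3, hippocampal control 1, hippocampal library labelled knockout 3 or cortical control 1 was left out (adjusted p = 0.0502 to 0.0632). After Meis2 the smallest adjusted p was that of Lhx2, at 0.0885 with a difference of -0.31 (SE 0.11).

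The test of genotype by region, which asks whether the genotype difference itself varies among regions, called 0 of 28 members with limma, where 0.0705% of genes were called. At an unadjusted p under 0.05, where 7.29% of genes were, there were 5: Zic4, Nr2e1, Pax6, Otx1 and Dmrt3. Zic4 had the smallest p (0.0121, adjusted p = 0.502), then Nr2e1 (0.0184, adjusted p = 0.580). edgeR called 0 (9 at an unadjusted p under 0.05), and DESeq2 called 1, Zic4, at an adjusted p of 0.0176. Without brainstem control 2, limma called Nr2e1 (adjusted p = 0.0307). Nr2e1 had 5.32, 0 and 6.43 in brainstem controls, from 8 reads in total, and the library left out is that at 0. It had 0 reads in the 3 brainstem libraries labelled knockout, which in library 3 allows up to 17.2 scaled counts. That call thus rests on values near the detection limit.

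Other genes of the same developmental families were counted for comparison, from lists that hold 35 further anterior and ventral factors and 40 further posterior ones. Of the anterior list 20 were tested and 15 differed between control regions, where 23.5% of all tested genes did. The filter on low values applied to both lists too, so these counts are descriptions. Otx2, which is also a defining factor of the choroid plexus, was at 1445 ± 946 in brainstem and 659 ± 195 in hippocampus (SD, n = 3 each), and at 67.6 ± 13.9 (SD, n = 3) in hippocampal libraries labelled knockout.

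Genes of the anterior list were also called by genotype. Of all tested genes, 2.36% were called in hippocampus and 5.75% averaged over regions. In hippocampus Sall3, a spalt zinc finger factor, was higher by 0.99 (SE 0.22, adjusted p = 0.0141), and Six3, a homeobox factor of the anterior forebrain, was lower with a difference of -2.42 (SE 0.47, adjusted p = 0.00447). Averaged over regions, Etv1 (0.40, SE 0.09, adjusted p = 0.00912), Sall1 (0.50, SE 0.12, adjusted p = 0.0135) and Sall3 (0.53, SE 0.11, adjusted p = 0.00334) were higher.

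Of the posterior list 16 were tested and 8 differed between control regions (23.5% of all tested genes), Lmx1a and Nkx6-2 among them. Lmx1a, a LIM-homeodomain factor of the roof plate and the choroid plexus lineage, was at 107 ± 21.2 in brainstem and 30.7 ± 10.4 in hippocampus (SD, n = 3 each), with 0 reads in olfactory bulb. It was the only gene of that list called by genotype, lower on average with a difference of -1.26 (SE 0.35, adjusted p = 0.0278), where 5.75% of all tested genes were called. Nkx6-2 was highest in brainstem, at 51.4 ± 32.0 (SD, n = 3). The sum of oligodendrocyte markers, given above, was also highest in brainstem controls, and the part of those cells in the Nkx6-2 level was not tested. The choroid plexus values above move with Otx2 and Lmx1a. Otx2 is itself among the listed choroid plexus markers, so their sum contains it. The part of choroid plexus cells in the levels of both genes was not tested.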

How the data were processed

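Each of the 24 libraries has 1 deposited table, whose unit is a normalised signal per gene (RNeasy Micro kit, NuGEN Trio RNA-Seq, per the labels' protocols). FastQC, STAR 2.5.0a, DESeq2 1.20.0 and mm10 are named in the submitters' processing notes, without their roles; the counting tool and its use of strand are not given in the sources used here. Every deposited value was a whole number of reads (within 0.01 read) divided by 1 factor per library. The factors of cortical libraries were at 0.788 to 0.794 of joint factors and the others at 1.00 to 1.01, so reads were recovered and rescaled by median-of-ratios factors over all 24 libraries. Log2 of that value plus 5 was fitted with limma 3.58.1 (R 4.3.3) as 8 group means with trended, robust variance and 16 residual degrees of freedom, for genes at 20 or more in at least 3 libraries. Tests were two-sided, with Benjamini-Hochberg adjustment within each contrast. Shares of all genes called are those of this limma fit, and none is given for other settings. The fit was tested on simulated data.

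Alternatives were an added constant of 1, no low-value filter, edgeR 4.0.16, DESeq2 1.42.0, limma-voom, the deposited scale, control libraries alone, a region alone, a replicate block and each library left out. The members and lists were chosen with earlier results of these data known. Values in every sample are given for the 8 members with the widest range of control means, for members called by genotype and, where none was called, for the 2 with the smallest p. Gene positions are from GENCODE vM21. A floor of 3 reads over a group stands in for a group at 0 and covers counting error only. Some genes of the further lists are not reported here.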

Additional observations from a re-analysis of the deposited data

How the results depend on the processing

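Counts of members called between regions stayed within 1.5 times their main value under every alternative run: 21 to 27 of the tested members in the control F test (25), 44 to 55 for control regions against the others (49), 66 to 82 over control pairs (81) and 42 to 59 in libraries labelled knockout (52). The range with 1 library left out was 22 to 25, 44 to 50, 70 to 80 and 44 to 55. The number of libraries labelled knockout nearest to their own region was 11 or 12, also when each member was left out in turn, which was chosen after seeing the data. Genotype counts are small and moved more. The share of all genes called under each alternative is not given, so more calls among members may reflect more calls among all genes. In hippocampus (1) edgeR gave 2, DESeq2 4, limma-voom 2, the deposited scale 2 and the region alone 2, with 0 to 1 when a library was left out. In cortex (0) limma-voom and the region alone each gave 1, with 0 in all 6 fits with a library left out. In brainstem (0) an added constant of 1 gave 1, DESeq2 2 and the replicate block 1 (Pax6, adjusted p = 0.0377), with 0 to 4 when a library was left out. The average over regions (1) was 2 with edgeR and 2 with DESeq2 (Meis2 and Sp8 in both), and 0 to 2 with a library left out. Genotype by region (0) was 1 with DESeq2, and 0 to 1 with a library left out. Olfactory bulb stayed at 0 in all alternatives. No named genotype difference changed sign.

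The labels number the libraries 1 to 3 in every group. Libraries with the same number in both genotypes of a region deviated together in 5 of 12 pairs (correlation over 0.1, range -0.115 to 0.320), against 2 of 24 pairs with different numbers. Among controls of different regions it was 8 of 18 against 8 of 36. Since not every same-numbered pair passed, the numbers were not taken as a pairing. The block changed the count of members called only in brainstem. Depth limits the brainstem most: 1 library there has 1090777 reads, so that genes listed at 0 may be present below its detection limit.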
